A study of Mus musculus with 8 samples.

Results

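The forkhead box (Fox) genes encode transcription factors that share a winged-helix DNA-binding domain, and they are sorted into lettered classes by the sequence of that domain. Their RNA was examined in mouse embryos, in the pSHF (posterior second heart field), the mesenchyme behind the heart from which cells of the atrial septum come. The members were all genes on the array whose name in the scanner files is Fox, a class letter from a to s and a number, with every probe of each gene. The rule used no measured value. It found 40 genes among 27827 gene names, with 57 probes on 66 spots of each array. All 40 names matched a RefSeq gene, and Foxf1a is listed there as Foxf1.

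The arrays compared the pSHF of embryos with 1 mutated Tbx5 allele (Tbx5-/+) with that of wild-type embryos (Tbx5 WT), at embryonic day 9.5. Each group held 4 independent pools of RNA, 1 on each array, with the embryo numbers 1, 5, 6 and 7 in both groups. The mice had a mixed background, the mothers had been hormone-treated before mating, and neither the number of embryos in a pool nor the part of Tbx5 that is mutated is given in the sources used here. The dissected tissue kept the attached foregut, while heart and neural tube had been cut away, so cells other than the mesenchyme were present. RNA of heart muscle genes was still read on the arrays, as given below with the cell markers.

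In the embryo, Fox factors of different classes act in different tissues. FoxF factors are made in splanchnic mesenchyme in response to Hedgehog ligands from the endoderm, FoxA factors open chromatin in the endoderm itself, and FoxC factors act in mesenchyme and vessels. FoxO factors are held out of the nucleus by insulin and PI3K signalling, FoxM1 drives genes of mitosis, and FoxP factors are mostly repressors that act as dimers. The question for which the arrays were made was which transcripts of the pSHF depend on Tbx5, and the Foxf genes are of interest there because they are also downstream of Hedgehog signalling.

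The array measures each gene through probes of 60 bases. The probes on which the results below turn are shown because the result for a Fox gene often depended on which of its probes was read. Positions are on mm9 as the scanner files list them, sequences are as listed there, 5′ to 3′ and in lower case, and all 60 bases are printed where the probe is placed over more genome than its length or has no stop codon in any of its 3 forward frames, otherwise the first 30. Whether a probe lies in coding sequence was not determined.
Foxf1a (chr8:123610681-123610740, plus strand): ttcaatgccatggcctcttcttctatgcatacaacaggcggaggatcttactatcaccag
Foxf2 (chr13:31723139-31723198, plus strand, first 30 bases): ttttatgatcttcgtatactcacacttcgc
Foxn3, upstream probe (chr12:100434184-100434243, minus strand, first 30 bases): tgaagccatagaaactcatattgacactca
Foxn3, middle probe (chr12:100433355-100433414, minus strand, first 30 bases): tgagattaaaggcacattgatggactcaac
Foxn3, downstream probe (chr12:100428694-100428753, minus strand, first 30 bases): agaaaacaagaccacaatgataaagcagaa
Foxo1, upstream probe (chr3:52150183-52150242, plus strand, first 30 bases): ttcggaatgacctcatggatggagatacct
Foxo1, downstream probe (chr3:52153289-52153348, plus strand, first 30 bases): ttctgggagaatgttcgctttctggtctat
Foxp1, middle probe (chr6:98885382-98889719, minus strand, split over 4338 bases of genome): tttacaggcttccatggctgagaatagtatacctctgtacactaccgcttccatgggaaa

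Of the 32 Fox probes tested, 3 are placed over more genome than their length, as a probe across an intron would be, 1 each for Foxp1, Foxp2 and Foxp4. The Foxp2 and Foxp4 probes of this kind are alike and are set out below with capitals for the bases that are the same in both when the Foxp4 probe is moved along by 1 base, which holds for 44 of 59 aligned bases (74.6%).
Foxp2 (chr6:15363873-15365044, plus strand): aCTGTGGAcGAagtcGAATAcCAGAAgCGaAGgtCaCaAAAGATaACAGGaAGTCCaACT
Foxp4 (chr17:48006730-48008227, minus strand): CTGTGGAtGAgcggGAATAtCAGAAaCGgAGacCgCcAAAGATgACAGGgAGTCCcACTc
No other pair of probes of different Fox genes shared more than 28 identical bases in an ungapped match.

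Several facts of the whole arrays bear on every value below. Tbx5 itself is read by 2 probes. The brighter (chr5:120334087-120334146) had log2 values of 9.01, 9.73, 9.16 and 8.62 in Tbx5-/+ numbers 1, 5, 6 and 7 and 11.47, 11.56, 10.42 and 11.54 in Tbx5 WT, a difference of −2.12 with no overlap. The other, placed over chr5:120321392-120332954, differed by −0.15 with overlapping groups. Tbx5-/+ 1 stood apart from the other mutant arrays on the leading principal component (37.1 against −112.2 to −26.1) and lay with the wild-type arrays (10.04 to 52.42). Over 2923 genes with probes at least 500 bases apart, the mean of the farthest 5′ minus the farthest 3′ probe was −1.33 in Tbx5-/+ 1, −1.81 to −1.66 in the other mutant arrays and −1.43 to −1.28 in Tbx5 WT, so that 5′ probes were dimmer in 3 of the 4 mutant arrays (exact permutation test on group means, two-sided p = 0.0857). The part of this gap in the Fox results was not tested. After variance stabilization (VSN) the median difference over all genes tested was −0.13, and it was 0.18 with scaling to the 75th percentile and 0.19 with arrays centred on their medians, so differences of this size change sign with the scaling. Differences are Tbx5-/+ minus Tbx5 WT on the log2 scale throughout.

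The arrays could measure 22 of the 40 Fox genes in this tissue. A probe was tested where the scanner software marked it well above background on each of the 4 arrays of 1 group or of both, which left 32 probes of 22 Fox genes. The other 18 genes were Foxb1, Foxb2, Foxd2, Foxd3, Foxd4, Foxe1, Foxe3, Foxi1, Foxi2, Foxj1, Foxk1, Foxl2, Foxn1, Foxn4, Foxo3, Foxo4, Foxp3 and Foxs1. Of these 18, Foxd4, Foxi1, Foxn1, Foxo3, Foxo4 and Foxp3 (6 genes) were well above background on no array; Foxn1 is known from thymic epithelium and Foxp3 from regulatory T cells. Foxs1 reached 2 mutant and 3 wild-type arrays, and Foxd2, Foxd3 (a neural crest factor) and Foxi2 reached 1 and 3. Over all 57 probes, 21 were well above background on more wild-type than mutant arrays, 36 on equal numbers and 0 on more mutant arrays. The share of all spots well above background was also lower in mutant arrays (45.0% to 52.8%) than in wild-type arrays (50.9% to 63.6%).

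No Fox gene passed the test across the array. With limma and Benjamini-Hochberg adjustment over 20027 probes, 0 of 22 Fox genes had an adjusted p under 0.05 by the brightest tested probe, and this was 0% of all 13949 genes. At an unadjusted p under 0.05, 4 Fox genes were lower in Tbx5-/+ (Foxf1a, Foxn3, Foxp1 and Foxp4), beside 15.4% of all genes, and 0 were higher, beside 4.08%. The 2 groups did not overlap for Foxf1a and Foxn3, both lower, beside 7.68% of all genes, and 0 Fox genes were higher in this way, beside 0.918%. These counts were near the shares over the whole array. The median difference of the 22 genes was −0.26, with 17 below 0 and 5 above, against −0.13 over all genes. With 75th percentile scaling or median centring only 9 of the 22 lay below 0, and the Fox median was 0.09 and 0.07, against 0.18 and 0.19 over all genes. With the embryo number as a block, limma called 3 Fox genes, Foxf1a, Foxp1 and Foxp2, all lower, beside 8.22% of all genes. Without Tbx5-/+ 1 it called 2, Foxf1a and Foxn3, beside 9% of all genes lower, with 0 higher beside 8.54%. The block gave 0 higher, beside 0.466%. The filter of the methods called Foxf1a alone, beside 1.66% of all genes lower. Array weights called 5 lower and 1 higher (Foxn2), beside 28.9% and 19.1% of all genes, and a SAM statistic called 4 lower (Foxf1a, Foxn3, Foxp1 and Foxp4), beside 12.2%, and 0 higher, beside 2.74%. Foxf1a lay apart and lower with 75th percentile scaling, quantile normalization and median centring too, where 2.62%, 3.44% and 1.94% of all genes did. Where probes had to be well above background on all 8 arrays, Foxf1a was not tested and Foxn3 was the 1 gene apart and lower, beside 7.35%.

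**Figure D1:**
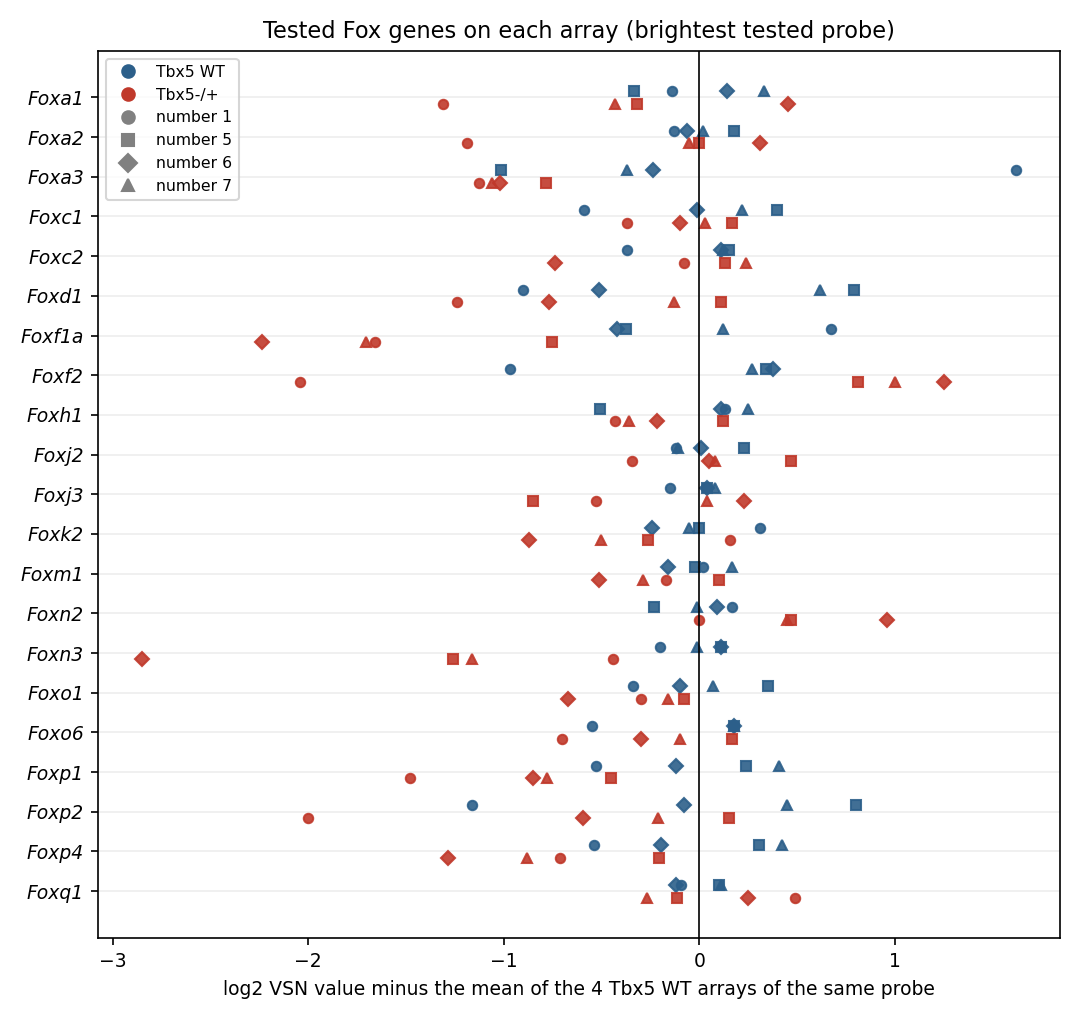
Each point is 1 array's log2 VSN value for a Fox gene (brightest tested probe) minus the mean of the 4 Tbx5 WT arrays for the same probe; Tbx5-/+ is red, Tbx5 WT blue, and the symbol gives the embryo number. The red points of Foxf1a and Foxn3 all lie left of the blue points (differences −1.59 and −1.43), while most other genes overlap; Tbx5-/+ 1 (red circle) lies far left for Foxf2.

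Foxf1a is needed in splanchnic mesenchyme for the vessels and mesenchyme of gut and lung. By the brightest tested probe it had the largest negative difference among the 22 genes after VSN with all arrays. Foxn3 lay lower with quantile normalization (−1.28 against −1.19) and without Tbx5-/+ 1 (−1.76 against −1.56). Among other probes, the middle one of Foxp1 (−1.74) and the upstream one of Foxp2 (−1.64) lay lower. With each array's probe gap as a term, Foxf2 (−1.77), Foxp2 (−1.75) and Foxp1 (−1.33) lay lower than Foxf1a (−1.27). The log2 values of Foxf1a were 7.14, 8.05, 6.56 and 7.10 in Tbx5-/+ numbers 1, 5, 6 and 7 and 9.48, 8.43, 8.38 and 8.92 in Tbx5 WT. All 4 mutant arrays lay below all 4 wild-type arrays, with differences of −0.38 within number 5 and −2.33, −1.81 and −1.82 within numbers 1, 6 and 7. The means were 7.21 ± 0.61 and 8.80 ± 0.51 (SD, n = 4 each), a difference of −1.59 (SE 0.35, 95% interval −2.37 to −0.81). The probe was tested through the wild-type group, since it was well above background on 3 mutant and 4 wild-type arrays, and Tbx5-/+ 6 was not above it. Leaving out Tbx5-/+ 6 gave −1.37 (adjusted p = 0.177 by limma). The adjusted p was 0.0957 by limma, and the exact permutation p was 0.0286, the smallest that 70 assignments allow. The difference was −1.36 on array label 1 and −1.82 on array label 2. The adjusted p was 0.0347 with the embryo number as a block and 0.0322 without Tbx5-/+ 1, where the difference was −1.56. Among the alternatives it ran from 0.000981 to 0.347, and the difference stayed negative in all 18 of them. Fitted with each array's probe gap as a term it was −1.27 (adjusted p = 0.278 by limma).

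Foxf2, the other FoxF gene, is made in overlapping mesenchyme and is brighter by its own probe, though levels of different probes cannot be set against each other. Its values were 9.96, 12.81, 13.25 and 13.00 in Tbx5-/+ and 11.03, 12.34, 12.38 and 12.27 in Tbx5 WT. In both groups number 1 was the lowest, well apart from the other 3 numbers. The means were 12.25 ± 1.54 and 12 ± 0.65 (SD, n = 4 each), a difference of 0.25 with an interval from −1.25 to 1.75 (adjusted p = 0.836 by limma). Without Tbx5-/+ 1 it was 1.02 with no overlap (adjusted p = 0.0626 by limma), and within numbers 5, 6 and 7 it was 0.47, 0.88 and 0.73 while number 1 gave −1.07. Fitted with each array's probe gap as a term the difference was −1.77, so its direction was not settled. Foxf1a relative to Foxf2 within each array changed by −1.84 and was lower in all 4 numbers, but the exact permutation p was 0.143, or 0.786 after Benjamini-Hochberg adjustment over 11 pairs of paralogs. The pair with the smallest exact permutation p was Foxn2 relative to Foxn3, with a change of 1.9 (p = 0.0286, or 0.314 after that adjustment).

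**Figure D2:**
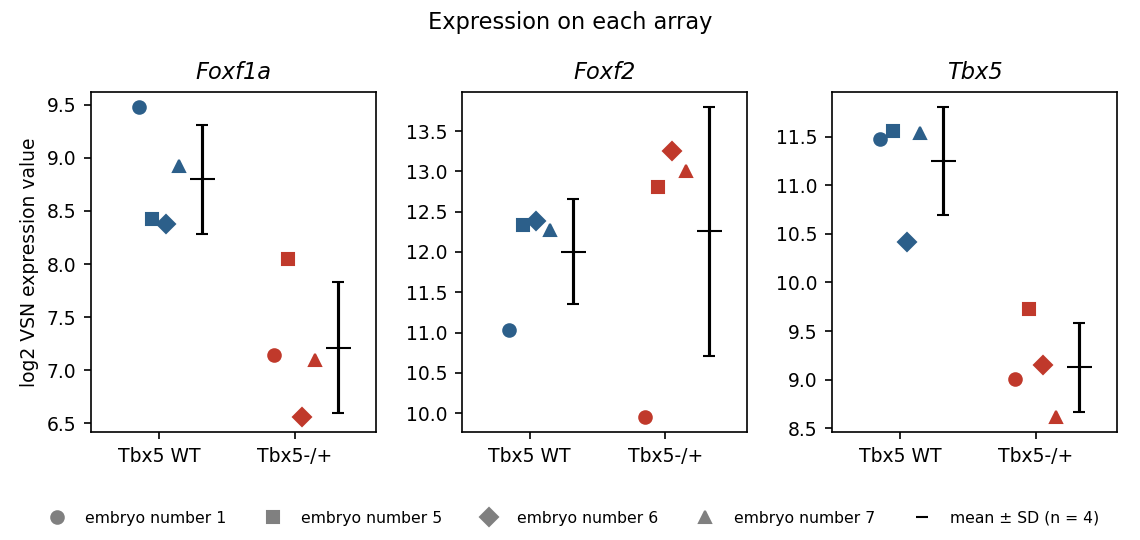
Log2 VSN values of Foxf1a, Foxf2 and the brighter Tbx5 probe on each array, with symbols for the embryo number and a bar for the group mean ± SD (n = 4); each panel has its own axis, which does not start at 0. Foxf1a and Tbx5 are lower on all Tbx5-/+ arrays (means 7.21 against 8.80 and 9.13 against 11.25), and Foxf2 splits by embryo number, with number 1 lowest in both groups.

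Both Foxf genes lie near other Fox genes. Foxc2, a factor of mesenchyme and lymphatic vessels, has its probe 32012 bases from that of Foxf1a, and its difference was −0.12 with overlapping groups (11.77, 11.98, 11.11 and 12.09 against 11.48, 12, 11.96 and 11.97). Mthfsd, between them at 11173 bases, differed by −0.09. Of the 10 tested probes within 500000 bases of the Foxf1a probe, 1 had groups that did not overlap, a Cox4nb probe at −1.68, beside 9% of all probes tested, and another probe of Cox4nb differed by −0.33. Around Foxf2, Foxq1 differed by 0.09, Foxc1 by −0.07 and Gmds by −0.07, and 0 of 3 tested probes had groups apart. Foxc1 and Foxq1 lie on either side of the Foxf2 probe, at 178118 and −71274 bases along the plus strand. The signs of Foxc1 and Foxc2 turned with 75th percentile scaling, to 0.30 and 0.25.

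The FoxA genes mark the endoderm of the foregut that was taken with the mesenchyme. Foxa2 had values of 12.26, 13.45, 13.76 and 13.40 in Tbx5-/+ and 13.32, 13.63, 13.39 and 13.47 in Tbx5 WT, so that Tbx5-/+ 1 alone was low. Its difference of −0.23 (interval −0.91 to 0.45) became 0.08 without that array and −1.03 with the probe gap as a term (adjusted p = 0.204 by limma). Its probe is spotted 10 times on each array, and the SD over those spots was 0.0149 to 0.0418 on the log2 scale. The SD between pools was 0.656 in Tbx5-/+ and 0.135 in Tbx5 WT. Foxa1 differed by −0.40 with overlap and was lowest on the same array (7.65). It was −0.0978 without Tbx5-/+ 1 and −1.24 with the probe gap as a term. Foxa3 was well above background on 0 mutant and 4 wild-type arrays, so it was tested through the wild-type group. Its groups overlapped (interval −2.05 to 0.0566, adjusted p = 0.243 by limma). With mutant values set no lower than the dimmest value marked well above background, its wild-type mean was 1.6-fold higher. Its value was 8.61 in Tbx5 WT 1 and 5.97 to 6.75 in the other wild-type arrays, and without Tbx5 WT 1 the difference went from −0.998 to −0.458.

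Foxd1, Foxh1, Foxm1, Foxj2, Foxj3, Foxk2, Foxo6 and Foxn2 had overlapping groups after VSN. Foxd1, known from kidney stroma, differed by −0.51 and was lower in all 4 numbers (−0.749 to −0.258), with an adjusted p by limma of 0.475, or 0.089 with the number as a block. Its other probe differed by −0.04. Foxh1, a partner of Smads in Nodal signalling, differed by −0.22. Foxm1, the mitotic factor, differed by −0.22 (interval −0.65 to 0.21), Foxj2 by 0.06, Foxj3 by −0.28, Foxk2 by −0.37 and Foxo6 by −0.23. Foxk2 and Foxo6 were also lower in all 4 numbers, with adjusted p by limma of 0.165 and 0.362 when blocked. Foxn2, a forkhead gene related to Foxn3, differed by 0.47 (interval −0.05 to 0.98), with 10.32, 10.79, 11.28 and 10.77 in Tbx5-/+ and 10.49, 10.09, 10.41 and 10.31 in Tbx5 WT. With 75th percentile scaling, median centring or quantile normalization the Foxn2 groups no longer overlapped, beside 11.4%, 10.2% and 5.43% of all genes higher in this way, and its adjusted p by limma was 0.17 to 0.218. With the probe gap as a term the Foxn2 difference was 0.0454 (adjusted p = 0.961 by limma).

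The 3 tested FoxP genes had differences below 0, as did 61.1% of all genes tested, and none passed the unpaired test. Foxp1, which acts in heart, lung and lymphocytes, had values of 12.87, 13.90, 13.50 and 13.57 in Tbx5-/+ and 13.82, 14.59, 14.23 and 14.76 in Tbx5 WT by its brightest probe. Only Tbx5-/+ 5 reached above the lowest wild-type array. The difference was −0.89 (SE 0.28), with −0.95, −0.69, −0.73 and −1.19 within numbers 1, 5, 6 and 7. The adjusted p was 0.162 by limma, and 0.0352 with the number as a block. It was 0.0748 without Tbx5-/+ 1. With the probe gap as a term the difference was −1.33 (adjusted p = 0.204 by limma).

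Foxp2, best known from brain and lung, differed by −0.67 by its brightest probe (8.57, 10.72, 9.98 and 10.36 against 9.41, 11.37, 10.49 and 11.02). Levels varied between embryo numbers more than between genotypes, and within numbers the difference ran from −0.84 to −0.52. This gave an adjusted p of 0.437 by limma, and of 0.045 with the number as a block. Leaving out Tbx5-/+ 1 gave −0.22 (adjusted p = 0.721 by limma), and the probe gap as a term gave −1.75 (adjusted p = 0.236 by limma). Foxp4 differed by −0.77 (7.34, 7.84, 6.77 and 7.17 against 7.52, 8.36, 7.86 and 8.48), and its adjusted p by limma was 0.199 and 0.063 when blocked on the number. Both Foxp4 probes were well above background on 3 mutant and 4 wild-type arrays, and the other one differed by −0.72. All 3 FoxP genes kept a negative sign under every alternative run, and paralogs of the class differed from each other by −0.22 to 0.105 (exact permutation p of 0.486 to 0.857 before adjustment over the 11 pairs).

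The table of RefSeq promoters (GRCm38.p6, 250 bases before to 50 after a start) held 30 promoters of 25 Fox genes, among them 13 of the 22 tested. A forkhead core (TGTTTAC or TGTTTAT, either strand, counted as 1 motif) was in 4 of the 30 (13.3%), beside 7.97% of all 32851 promoters. It was found for Foxa1, Foxp3 and at 2 of the 3 Foxp1 starts. The 2 Foxp1 matches lie 77 and 92 bases before the start. A T-box core (AGGTGTG) and a GLI core (GACCACC) were in 0 of the 30 Fox promoters, beside 5.84% and 2.8% of all promoters on either strand; the Foxf2 promoter was among the 30 and Foxf1a was not.

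Probes of Foxn3, Foxo1, Foxp1 and Foxp2 gave differences of unlike size, though the change between the 5′ and the 3′ probe passed adjustment for none of the 7 genes with several tested probes. Foxn3, a repressor of checkpoint genes, had values of 12.83, 12.01, 10.42 and 12.11 in Tbx5-/+ and 13.07, 13.38, 13.38 and 13.26 in Tbx5 WT by its upstream probe. All mutant arrays were lower, with −0.24 within number 1 and −2.96 within number 6. The difference was −1.43 (SE 0.43, adjusted p = 0.148 by limma), with an adjusted p of 0.0527 by limma when blocked on the number, and it was −1.76 without Tbx5-/+ 1 (adjusted p = 0.0234 by limma). With the probe gap as a term it was −0.466 (adjusted p = 0.707 by limma). Without Tbx5-/+ 6 it was −0.96. The middle probe gave −1.49, also with no overlap (adjusted p = 0.0957 by limma, 0.0345 with the number as a block).

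The downstream probe of Foxn3 gave −0.04, with 9.77, 9.93, 9.47 and 9.97 against 10, 9.70, 9.86 and 9.73, and the groups overlapped. The upstream value relative to the downstream one was 2.06 ± 0.87 in Tbx5-/+ and 3.45 ± 0.27 in Tbx5 WT (SD, n = 4 each), a change of −1.39. The exact permutation p of that change was 0.0286 and 0.2 after Benjamini-Hochberg adjustment over 7 genes.

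Foxo1, the FoxO factor of endothelium and of insulin responses, showed the same order. Its upstream probe had 10.56, 9.98, 8.61 and 9.38 in Tbx5-/+ and 10.57, 11.22, 10.59 and 11.23 in Tbx5 WT. The groups did not overlap, although the difference within number 1 was only −0.00784. The difference was −1.27 (SE 0.39, adjusted p = 0.154 by limma, 0.047 with the number as a block), and −0.359 with the probe gap as a term (adjusted p = 0.741 by limma). The downstream probe, 3106 bases away on the genome, differed by −0.30 with overlap, and its sign turned with 75th percentile scaling (0.05). The change of the upstream relative to the downstream probe was −0.97 (exact permutation p = 0.0571).

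Foxp2 had a difference of −1.64 (adjusted p = 0.111 by limma, 0.0335 with the block) with no overlap at the upstream probe and of −0.67 at the downstream probe, and the change between them had an exact permutation p of 0.143. That upstream probe and the middle probe of Foxp1 were tested through the wild-type group: both were well above background on 3 mutant and 4 wild-type arrays, and not on Tbx5-/+ 6. For Foxp1 the middle probe gave 8.43, 8.06, 6.88 and 7.55 in Tbx5-/+ and 9.35, 9.74, 8.92 and 9.86 in Tbx5 WT. Its difference of −1.74 (SE 0.35) had no overlap (adjusted p = 0.0957 by limma, 0.0335 with the block). The upstream probe gave −0.81 (adjusted p = 0.233 by limma, 0.0391 with the block). It too was tested through the wild-type group, being well above background on 3 mutant and 4 wild-type arrays. The downstream probe gave −0.89, and the middle probe was not tested against these 2. Foxk2 (−0.32, −0.60 and −0.37) and Foxp4 showed no such order. The Foxd1 probes, 83 bases apart, had a change of −0.466 (exact permutation p = 0.114).

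By probes rather than genes, 6 of 32 Fox probes were lower with no overlap, those of Foxf1a and Foxo1, 2 of Foxn3, and 1 each of Foxp1 and Foxp2, beside 9% of all probes tested. Of the 25 Fox probes well above background on all 8 arrays, 3 (12%) were, beside 8.08% of all such probes. Over the 2923 genes with probes at least 500 bases apart, the change of the 5′ relative to the 3′ probe had a median of −0.23 and lay below 0 for 66.4%, and its groups were apart and lower for 5.85%. Without Tbx5-/+ 1, whose own gap was like that of wild-type, the changes were −1.73 for Foxn3, −1.28 for Foxo1 and −1.38 for Foxp2.

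**Figure D3:**
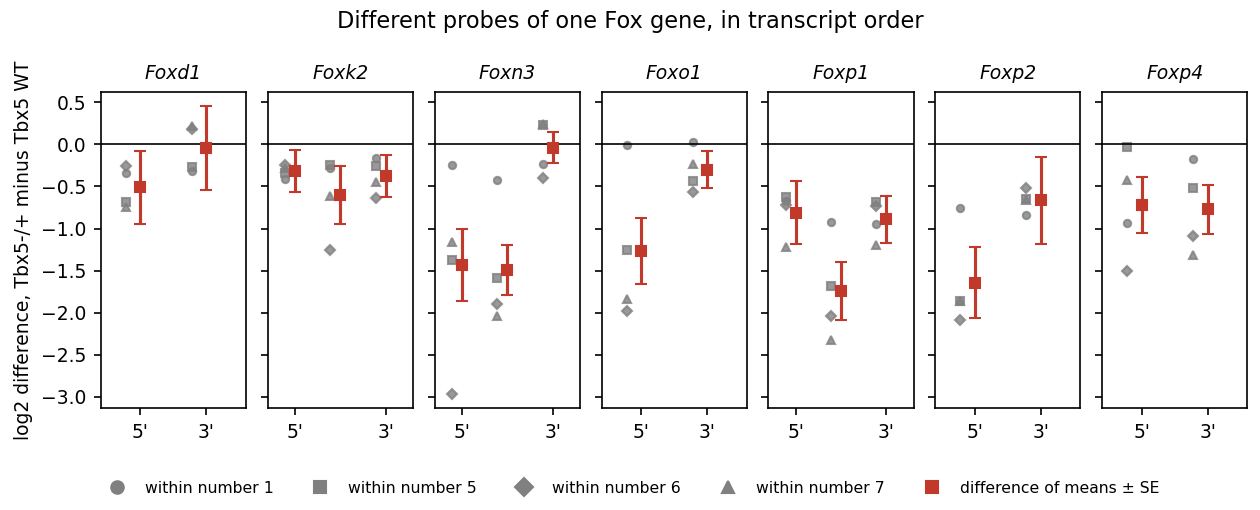
For the 7 Fox genes with several tested probes, red squares give the log2 difference Tbx5-/+ minus Tbx5 WT ± SE of each probe, ordered from 5′ to 3′ along the transcript, and gray symbols give the difference within each embryo number. Foxn3, Foxo1 and Foxp2 have their lower values upstream (−1.43, −1.27 and −1.64 against −0.04, −0.30 and −0.67), and Foxp1 in the middle (−1.74).

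Genes known to act with or downstream of Fox factors were read from lists, by the brightest probe of each gene. By unpaired limma 0 genes of any list had an adjusted p under 0.05. Of 14 Hedgehog pathway genes, which act upstream of the Foxf genes, 4 were lower at an unadjusted p under 0.05, beside the 15.4% of all genes, and 0 were higher, with a median of −0.57. The target Gli1 differed by −1.13 and the coreceptor Gas1 by −0.61, both with no overlap, and Sufu by −0.73. Boc differed by −1.02 but was not among the 4 (unadjusted p = 0.0602 by limma). Smo (0.42), Disp1 (0.305) and Cdon (0.29) had differences above 0. Gli1 alone had an adjusted p under 0.05 with the block (0.0335 by limma).

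Of 12 mitotic targets of Foxm1, 2 were lower at that level, near the 15.4% of all genes, Top2a (−0.67) and Plk1 (−0.62), and the median was −0.09. Of 13 tested FoxO targets 0 were lower and 0 higher, with a median of −0.06. Among the smallest p-values there, Sod2 and Bcl6 differed by 0.38 and 0.65 and Cat by −0.76. Of 7 tested FoxA targets of endoderm and liver, 1 was lower, also near that share, Apoa2 (−1.89), and the median was −0.86, while Ttr, Apoa1, Apob, Tff3 and Sftpc were not tested.

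Markers of the cells in the dissected tissue were summarized in the same way, each list as the mean log2 value of its tested genes. For 12 pSHF genes, of which Foxf1a is one, the list mean was 10.09 to 10.85 in Tbx5-/+ and 10.87 to 11.61 in Tbx5 WT. At an unadjusted p under 0.05, 6 genes were lower, beside 15.4% of all genes, among them Tbx5, Gata4 (−1.37) and Osr1 (−1.34). With the embryo number as a block limma called 6 of the 12 lower and 0 higher, beside 8.22% and 0.466% of all genes. The list median was −0.80, and Nr2f2 (0.55), Isl1 (0.35), Wnt2 (0.06) and Aldh1a2 (0.02) had differences above 0. Without Tbx5-/+ 1 limma called 5 pSHF genes lower and 2 higher, Nr2f2 (1.13) and Aldh1a2 (0.758), beside 9% and 8.54% of all genes. For 12 endothelial genes the list mean was 10.74 to 11.25 against 11.30 to 11.52, with 4 lower, Kdr (−1.12) first, and a median of −0.35. The block called 2 of these lower and 0 higher. Robo4 (0.49), Emcn (0.21), Cdh5 (0.145), Erg (0.07) and Esam (0.01) had differences above 0. Neither list's mean overlapped between the groups, but relative to each array's median both did (0.39 to 1.02 against 0.98 to 1.55, and 1.22 to 1.42 against 1.27 to 1.47). In these bulk samples fewer cells of a type and less RNA per cell cannot be told apart, and the part of these lists in the Foxf1a value was not tested.

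The 11 tested foregut endoderm genes had 1 lower, Sox17 (−1.01, adjusted p = 0.0454 by limma with the block), beside 15.4% of all genes. Their list means overlapped (10.62 to 11.34 against 11.04 to 11.28). The lists for cardiomyocyte, neural tube, somite and primitive erythrocyte had 0 genes lower and 0 higher of 12, 7, 5 and 11 tested, with medians of 0.21, 0.11, 0.10 and −0.27. Neural crest had 1 of 6 lower and liver bud 2 of 6, with medians of −0.18 and −0.96. Over all genes 15.4% were lower and 4.08% higher at that level. The block called 0 neural crest genes and 1 liver bud gene lower, beside 8.22% of all genes. The means of these 6 lists overlapped between the groups, and liver bud and neural tube had the widest ranges (7.96 to 11.29 and 7.44 to 10.29). The cardiomyocyte list mean was high, at 13.17 to 14.52 in Tbx5-/+ and 13.42 to 14.31 in Tbx5 WT. Relative to each array's median it was 3.46 to 4.77 and 3.37 to 4.42. The source of this RNA in the dissected tissue was not tested.

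**Figure D4:**
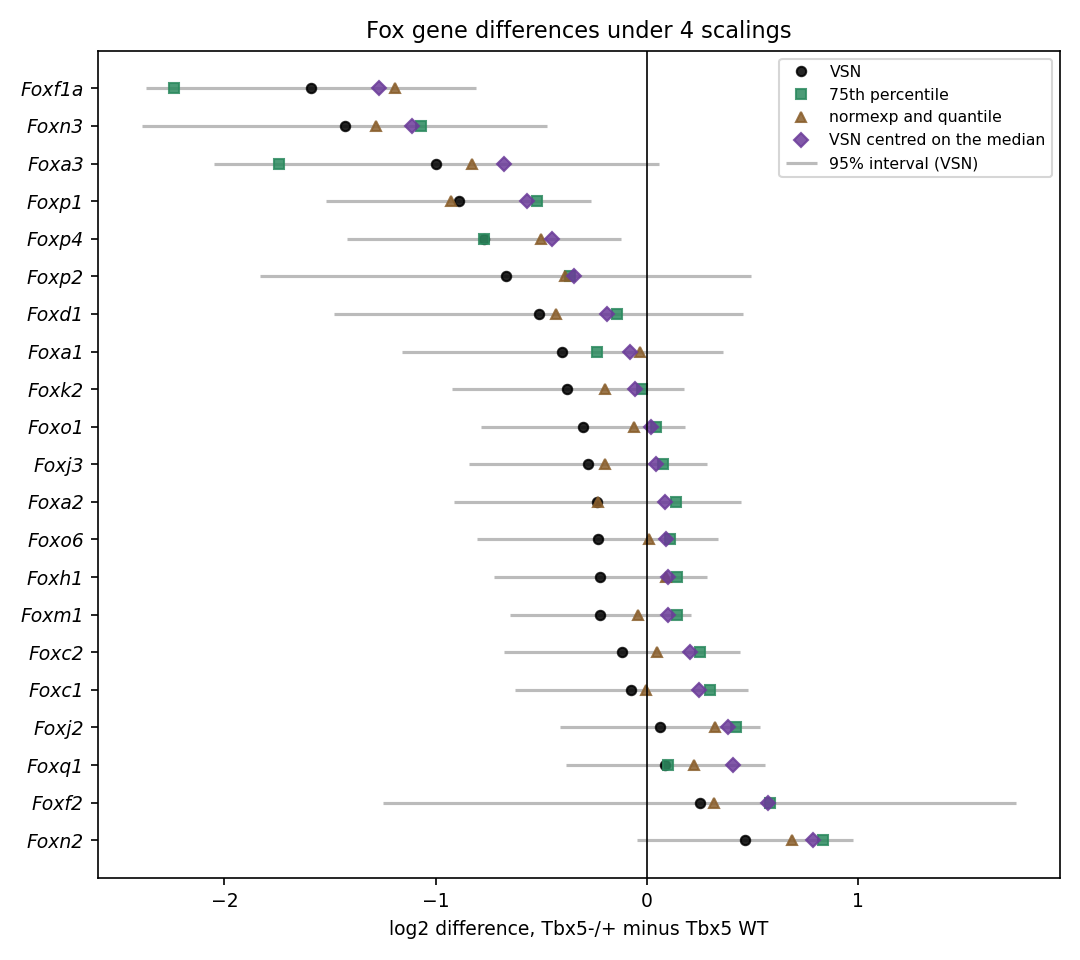
Log2 difference Tbx5-/+ minus Tbx5 WT of each tested Fox gene under 4 scalings of the same arrays, with the 95% interval of the VSN value in gray. Foxf1a, Foxn3, Foxp1, Foxp4 and Foxp2 are among the genes that stay below 0 under all 4 (Foxf1a from −2.24 to −1.19), while genes near 0, such as Foxc1 (−0.07 by VSN, 0.30 by 75th percentile), change sign.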

How the data were processed

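RNA of 8 dissected pSHF pools (4 Tbx5-/+, 4 Tbx5 WT) was labelled with Cy3 and hybridised by the authors to 1-colour Agilent mouse arrays, which were read with Feature Extraction 10.5.1.1. Per the file headers the deposited scanner files hold spot intensity values on a linear scale, and the authors' deposited value table holds VSN values on a log2 scale. Mean minus local background intensity was normalized by VSN, programmed in R 4.3.3, and correlated with the deposited values at r of at least 0.9999 on each array. Control spots and 1115 outlier spots were left out, and 0 spots were saturated. Spots of a probe were averaged, and a gene was read by its brightest tested probe.

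Probes tested were those marked well above background on each of the 4 arrays of either group. Groups were compared unpaired with limma 3.58.1 (lmFit, eBayes, 9.83 degrees of freedom), with Benjamini-Hochberg adjustment over 20027 probes at 0.05, and single values by two-sided exact permutation over 70 assignments. The tests were tried on simulated data. The number of arrays limits the precision. Samples of the same embryo number deviated together for numbers 5, 1 and 6 (correlations of 0.4, 0.438 and 0.593). For number 7 the correlation was 0.137, while Tbx5-/+ 7 correlated at 0.372 with Tbx5 WT 6. Pairing by number was therefore not clear for number 7. A SAM statistic, programmed here after the study's methods, was run as an alternative beside other scalings, filters, blocks, array weights, a 5′ to 3′ covariate and left-out arrays. Named genes were all tested Fox genes, Tbx5, the neighbours of the Foxf probes and, from each list, up to 5 genes in order of unadjusted p. Values of 1 tested Fox gene and of 1 gene of the lists are not reported here, although the counts include them. The members and lists were chosen with earlier results of these data known. Promoters were from RefSeq (GRCm38.p6), and no genome or protein sequence was used here.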

Additional observations from a re-analysis of the deposited data

Results flagged for a closer look

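In 62 groups of 4 arrays (each Fox probe reported, in each genotype), 4 held an array far from the other 3 by Dixon's criterion, and chance alone gives about 1 in 20. All 4 were arrays of embryo number 1. For Foxf2 the ratio of gap to range was 0.865 in Tbx5-/+ 1 (9.96 against 12.81 to 13.25) and 0.918 in Tbx5 WT 1 (11.03 against 12.27 to 12.38). For Foxc2 it was 0.914 in Tbx5 WT 1 (11.48 against 11.96 to 12), and for Foxo6 it was 0.997 in Tbx5 WT 1 (10.13 against 10.86). These arrays were read on the same slide as number 5, and what sets them apart was not tested.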

How the results depend on the processing

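The number of Fox genes called by limma was 0, and it was 1 with the methods' filter on probes, 3 with the embryo number as a replicate block, 6 with array weights, 4 by SAM and 0 to 2 with 1 array left out. The block changed the calls of Foxf1a, Foxp1 and Foxp2 and no other call of a Fox gene read by its brightest probe. Among other probes it also called 1 of Foxn3, 1 of Foxo1, 2 of Foxp1 and 1 of Foxp2. By probes this was 8 of 32 Fox probes lower (25%), beside 10.7% of all probes tested. Foxf1a passed the threshold with the methods' filter (−1.59, adjusted p = 0.0471 by limma), the block (−1.59), array weights (−1.50) and without Tbx5-/+ 1 (−1.56), and with 1 array left out its difference ran from −1.87 to −1.36. Foxf2 was −1.77 when each array's probe gap was a term and ran from −0.0823 to 1.02 with 1 array left out. The 2 genes lower with no overlap became 1 with 75th percentile scaling, median centring or only probes well above background on all 8 arrays (2.62%, 1.94% and 7.35% of all genes). With 1 array left out they were 2 to 6, beside 7.97% to 17.8% of all genes, and 12.4% where 6 were. Those higher were 0, and 1 with 75th percentile scaling, quantile normalization or centring (11.4%, 5.43% and 10.2% of all genes). With 1 array left out they were 0 to 3, beside 1.03% to 18.8% of all genes, and 18.8% where 3 were. The Fox median of −0.26 was 0.0892 with 75th percentile scaling, 0.0654 centred, 0.0567 with no filter, −0.0525 with quantile normalization, −0.51 with the methods' filter, −0.62 with the gap covariate and −0.35 to −0.17 with 1 array left out. The 1 paralog pair and 1 probe pair at the smallest permutation p became 0 to 2 and 0 to 3 with 1 array left out.

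Of 349 values of 19 other Fox genes, 311 kept direction and call, 8 passed the threshold and 30 changed sign; the cause was not tested. With 75th percentile scaling and with centring, Foxa2 was 0.14 and 0.0878, Foxc1 0.30 and 0.25, Foxc2 0.25 and 0.20, Foxh1 0.14 and 0.10, Foxj3 0.0771 and 0.043, Foxm1 0.15 and 0.10, Foxo1 0.0462 and 0.0213, and Foxo6 0.11 and 0.0901. Quantile normalization gave Foxc2 0.0508, Foxh1 0.0896 and Foxo6 0.0132, array weights gave Foxc2 0.0447 and Foxq1 −0.26, and the gap covariate gave Foxj2 −0.23 and Foxk2 0.19. With 1 array left out, Foxa2 ran from −0.415 to 0.0842, Foxc1 from −0.271 to 0.0599, Foxc2 from −0.241 to 0.0907, Foxj2 from −0.0732 to 0.198 and Foxq1 from −0.0452 to 0.207. Dim probes, such as those of Foxa3 and Foxp4, have the least signal over background.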
